A study of Mus musculus with 24 samples.

Results

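Voluntary wheel running was compared with no running in the gastrocnemius, a mixed hind-limb muscle, of dystrophin-deficient mdx mice, taken over both injections of the study. The running arrays were 10 of the 24 arrays in all, chosen because their titles name running, and the sedentary mdx arrays, whose titles name none, were another 10. Every detected gene was tested, 8945 in all. All mice were male, with a labelled age of 6 to 7 weeks that is not tied to a time point. Running mdx mice had a wheel for 7 weeks and received either phosphate-buffered saline (running PBS, 5 mice) or sActRIIB-Fc (running sActRIIB-Fc, 5 mice). Their sedentary counterparts received the same injections without a wheel (sedentary PBS and sedentary sActRIIB-Fc, 5 mice each). sActRIIB-Fc was given into the peritoneum once a week at 5 mg/kg. It is the soluble outer part of an activin receptor on an antibody tail, which captures myostatin, activins and related ligands. Healthy C57Bl/10ScSnJ mice (4 arrays), for which no injection is named, stayed outside the running contrast but entered the fit that estimated the spread. The tests against them given here are of sedentary PBS mdx mice alone. Their levels are also set beside those of running arrays for some genes, without a test. The wheel was voluntary, so each mouse set its own dose, and running distance was not analysed here.

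In healthy muscle, weeks of endurance running are known to raise mitochondrial enzymes, fatty acid use and capillary supply, with the coactivator gene Ppargc1a and its ERR partners as central regulators, and to move fast fibres from type IIb myosin toward IIx and IIa. mdx fibres lack dystrophin, break down and regenerate, and are crowded by macrophages and matrix. The dystrophin complex at the fibre membrane also anchors other proteins, among them the water channel encoded by Aqp4. In whole muscle, fewer cells of a type and less RNA per cell cannot be told apart.

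Between 10938 and 11971 of the 25697 probes were detected on each mdx array. Muscle transcripts stood near the top of the scale throughout: Actn3, the fast fibre actinin, lay between 14.58 and 14.81 log2 units on running arrays and between 14.66 and 14.83 on sedentary arrays. Pairs of arrays within a group correlated at 0.977 to 0.992 in running PBS, 0.953 to 0.989 in running sActRIIB-Fc, 0.986 to 0.993 in sedentary PBS and 0.988 to 0.993 in sedentary sActRIIB-Fc, so the spread was widest in running mice given sActRIIB-Fc. Transcripts typical of hepatocytes, the main cells of liver, varied between arrays of 1 group. Their mean level over 16 tested genes of 23 listed exceeded 8 log2 units on replicates 1 and 2 of both running groups (8.35, 9.63, 9.73 and 9.13) and on 0 of the 10 sedentary mdx arrays, where it ran from 5.59 to 7.88. In wild type it measured 8.16, 11.08, 8.06 and 5.69, so 3 of those 4 arrays exceeded 8 as well. All 16 were positive for running, with a median of 1.30 log2 units, and the median was -0.21 without the 4 arrays. Apoa1, an apolipoprotein gene of liver, ran from 4.62 to 10.96 on running arrays and from 4.61 to 8.75 on sedentary arrays. Results are therefore also given without those 4 running arrays, and the part of these transcripts in any muscle gene's value was not tested.

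Running passed the test at 1 of 8945 genes (0.0112%), which was Aqp4, and it was higher. On the 5 running PBS arrays Aqp4 measured 7.39, 7.46, 7.14, 7.89 and 7.62 log2 units, against 6.87, 6.51, 6.55, 6.37 and 6.66 on the sedentary PBS arrays. On the running sActRIIB-Fc arrays it measured 6.82, 7.00, 6.95, 7.00 and 6.82, against 6.76, 6.83, 6.82, 6.45 and 6.76 on the sedentary sActRIIB-Fc arrays. Under PBS the groups did not overlap, whereas under sActRIIB-Fc they overlapped, and 8 of the 10 running arrays stood above every sedentary array. Averaged over both injections, Aqp4 rose by 0.55 ± 0.09 log2 units (SE, 95% interval 0.37 to 0.72, 1.46-fold, adjusted p = 0.014 by limma's moderated test with Benjamini-Hochberg adjustment). The change was 0.90 ± 0.12 under PBS (adjusted p = 0.0011) and 0.19 ± 0.12 under sActRIIB-Fc (adjusted p = 0.66), and the difference between both injections' changes, -0.71 ± 0.17, did not pass (adjusted p = 0.93 for the limma interaction). Wild type averaged 7.79 ± 0.20 log2 units (SD, n = 4), and 9 of the 10 running arrays lay below that mean.

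The Aqp4 call was lost in 6 other fits. A model of running and injection as 2 additive factors, which leaves the difference between injections in the error, gave the same 0.55 with adjusted p = 0.24, and dropping the 4 arrays rich in hepatocyte transcripts gave 0.57 with adjusted p = 0.23. It was lost as well with those 4 and the 3 wild-type arrays above 8 left out (0.44), with a replicate block (0.15), with arrays scaled to equal medians (0.16) and with the hepatocyte level as a covariate (0.055), each an adjusted p by limma. Without background correction the call held (adjusted p = 0.024 by limma), at a smaller difference of 0.38.

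Selenbp1, which encodes a selenium-binding enzyme of sulfur metabolism, had the next lowest p and did not pass. It measured 8.88, 8.86, 8.70, 8.77 and 8.81 log2 units on running PBS arrays, against 8.40, 8.61, 8.44, 8.61 and 8.39 on sedentary PBS arrays. Under sActRIIB-Fc it measured 9.14, 9.03, 8.74, 8.87 and 8.82 on running arrays, against 8.56, 8.59, 8.65, 8.53 and 8.65 on sedentary ones. All 10 running arrays lay above all 10 sedentary arrays, by a similar margin under either injection. The difference was 0.32 ± 0.06 log2 units (95% interval 0.20 to 0.44, adjusted p = 0.069 by limma). Its highest running values, 9.14, 9.03 and 8.88, were those of hepatocyte-rich arrays. Without the 4 hepatocyte-rich arrays the difference was 0.24 (adjusted p = 0.87 by limma). With the hepatocyte level as a covariate it was 0.26 (adjusted p = 0.13 by limma). Wild type averaged 9.17 ± 0.12 (SD, n = 4). Only 2 genes of 8945 (0.0224%) separated the 10 running from the 10 sedentary arrays in this way. The other was Nrn1, which encodes neuritin, a small membrane-anchored protein of neurons, and which is named here after its values were seen. Nrn1 measured 6.56, 6.63, 6.09, 6.34 and 6.16 on running PBS arrays, against 6.08, 5.96, 6.06, 6.01 and 5.49 on sedentary PBS arrays. It measured 7.30, 6.78, 6.26, 6.29 and 6.13 on running sActRIIB-Fc arrays, against 6.04, 6.03, 6.08, 5.90 and 6.04 on sedentary sActRIIB-Fc arrays. Its highest running values were those of the hepatocyte-rich arrays, and its difference of 0.49 ± 0.18 log2 units (adjusted p = 0.60 by limma) was 0.25 without them.

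**Figure D1:**
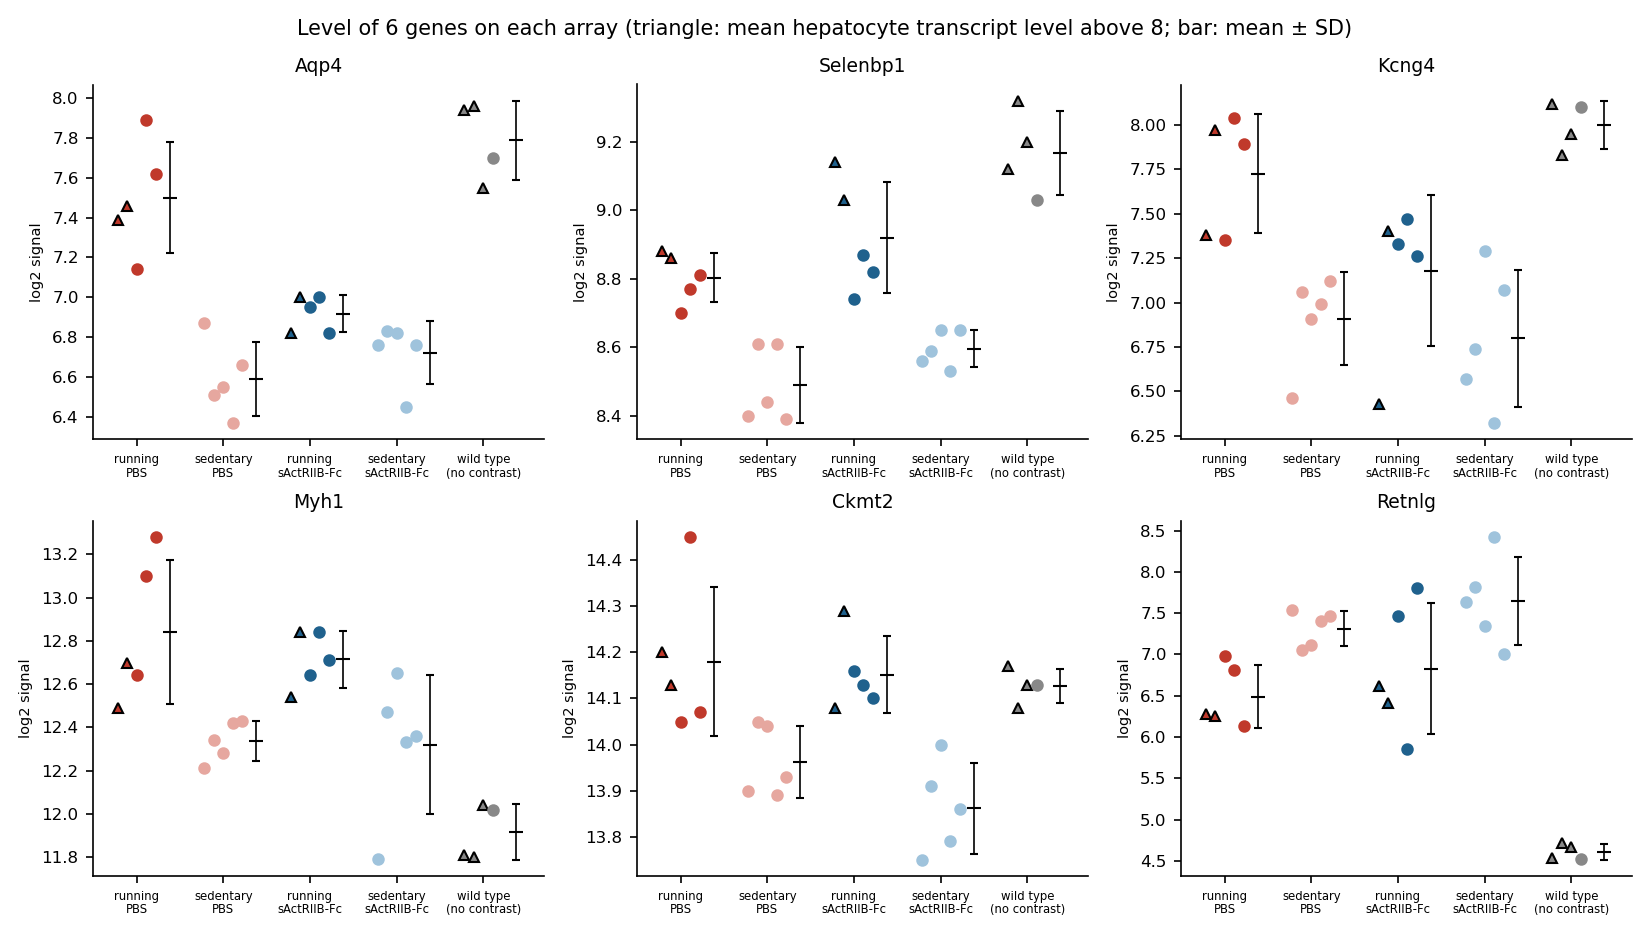
Level of 6 genes in log2 units on each array, by group, with mean ± SD beside the points and triangles for arrays whose mean hepatocyte transcript level exceeded 8. Selenbp1 separates all 10 running from all 10 sedentary arrays, Aqp4 does so under PBS alone, and Retnlg lies lower on 8 of 10 running arrays than on any sedentary array.

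The other 8 genes of lowest p on the higher side did not pass either. Myh1, the myosin heavy chain of type IIx fibres, measured 12.49, 12.70, 12.64, 13.10 and 13.28 log2 units on running PBS arrays, against 12.21, 12.34, 12.28, 12.42 and 12.43 on sedentary PBS arrays. Under sActRIIB-Fc it measured 12.54, 12.84, 12.64, 12.84 and 12.71 on running arrays, against 11.79, 12.47, 12.65, 12.33 and 12.36 on sedentary arrays. The groups overlapped through 1 sedentary sActRIIB-Fc array, and the difference was 0.45 ± 0.10 (1.37-fold, adjusted p = 0.28 by limma). A second Myh1 probe gave 0.52 ± 0.19. Cross-hybridization between near-identical myosin genes was not tested. Wild type, at 11.80 to 12.04, lay below the running arrays, and sedentary PBS mdx exceeded wild type by 0.42 (adjusted p = 0.029 by limma), so running values stood farther from wild type than sedentary ones did. Kcng4, a modifier subunit of voltage-gated potassium channels, measured 7.38, 7.97, 7.35, 8.04 and 7.89 on running PBS arrays, against 6.46, 7.06, 6.91, 6.99 and 7.12 on sedentary PBS arrays. Under sActRIIB-Fc it measured 6.43, 7.40, 7.33, 7.47 and 7.26 on running arrays, against 6.57, 6.74, 7.29, 6.32 and 7.07 on sedentary arrays. Running replicate 1 under sActRIIB-Fc stood well below the other 4 of its group. The difference over both injections was 0.60 ± 0.14 (adjusted p = 0.28 by limma), and without that array it passed at 0.69 (adjusted p = 0.037 by limma). The array is singled out for its low value, so that pass adds no support. Kcng4 did not pass in the other 19 fits that each left out 1 of the 20 mdx arrays.

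Ckmt2, the mitochondrial creatine kinase of muscle, ran from 14.05 to 14.45 log2 units on running arrays and from 13.75 to 14.05 on sedentary arrays (0.25 ± 0.06), and 9 of 10 running arrays stood above every sedentary array. Aldh5a1, which clears succinate semialdehyde, ran from 8.01 to 9.00 on running arrays and from 7.86 to 8.30 on sedentary arrays (0.41 ± 0.09), again with 9 of 10 running arrays above. Adh1, an alcohol dehydrogenase, differed by 0.54 ± 0.13. Echs1 and Eci1, the hydratase and isomerase of mitochondrial fatty acid breakdown, differed by 0.33 ± 0.08 and 0.29 ± 0.07. Oxct1, which starts the use of ketone bodies in muscle, differed by 0.29 ± 0.07. Each of these 6 had an adjusted p of 0.28 by limma. Without the 4 hepatocyte-rich arrays Ckmt2, Aldh5a1, Adh1, Echs1, Eci1 and Oxct1 stood at 0.25, 0.45, 0.43, 0.24, 0.25 and 0.35.

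Among the lower genes none passed either. Retnlg, a resistin-like gene of neutrophils and other myeloid cells, measured 6.28, 6.25, 6.98, 6.81 and 6.13 log2 units on running PBS arrays, against 7.54, 7.06, 7.11, 7.40 and 7.46 on sedentary PBS arrays. Under sActRIIB-Fc it measured 6.62, 6.41, 7.46, 5.85 and 7.80 on running arrays, against 7.64, 7.82, 7.35, 8.42 and 7.00 on sedentary arrays. The groups were apart under PBS and overlapped under sActRIIB-Fc through replicates 3 and 5 of the running mice. The difference was -0.82 ± 0.20 (adjusted p = 0.28 by limma) over both injections, -0.83 under PBS and -0.82 under sActRIIB-Fc. In wild type it was not above background on any array, with signals of 4.52 to 4.72. Gal3st1, the sulfotransferase of cerebroside lipids, differed by -0.70 ± 0.20, with 6 of 10 running arrays below every sedentary array. Ret, the receptor of the GDNF family, differed by -0.35 ± 0.10, the histone gene H2bc6 by -0.35 ± 0.09, the tubulin gene Tubb4b by -0.36 ± 0.11, and Tmem43, of the inner nuclear membrane, by -0.29 ± 0.08. Hcfc1r1, Zfp770 and Snap29, the last a membrane fusion protein of autophagosomes, differed by -0.28, -0.25 and -0.21. Adjusted p for these 8 lay between 0.34 and 0.45 by limma. Without the 4 hepatocyte-rich arrays H2bc6 and Tubb4b stood at -0.21 and -0.20, while Retnlg, Gal3st1, Ret and Tmem43 stood at -0.64, -0.66, -0.29 and -0.23. Hcfc1r1, H2bc6 and Ret had low signal, and without background correction they stood at -0.14, -0.18 and -0.20. Asap2 completed the 10 lowest but was detected on 0 of the 5 running sActRIIB-Fc arrays, so no fold is given for it.

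Before adjustment, 599 genes (6.7%) had a p under 0.05, 330 higher (3.69%) and 269 lower (3.01%) in running muscle. Gene lists of muscle biology are read against these shares, against the 46.9% of all genes whose running difference was positive, and against the median of -0.01 over all genes. The lists were chosen with earlier results of these data known, and some hold genes already named above by their p. Their counts are therefore descriptions and not independent tests. Aqp4 was the 1 list member that passed after adjustment.

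Lists of oxidative fuel use lay mostly on the higher side. Of 27 tested genes of fatty acid uptake and oxidation 22 were positive, 11 were higher and 0 lower at an unadjusted p under 0.05, and the median was 0.14. The list's mean level ran from 9.97 to 10.35 log2 units on running arrays and from 9.83 to 10.10 on sedentary arrays, and 7 of 10 running arrays exceeded every sedentary array. Of 18 genes of ketone, amino acid and aldehyde metabolism, among them Adh1 and Oxct1 named above by their p, 17 were positive and 7 higher. The median was 0.15, and 8 of 10 running arrays exceeded every sedentary array in mean level. Both medians were present under each injection, at 0.21 and 0.18 under PBS and 0.12 and 0.11 under sActRIIB-Fc. They also remained without the 4 hepatocyte-rich arrays, at 0.11 and 0.18. Of these genes 21 of the 27 and 11 of the 18 were lower in sedentary PBS mdx than in wild type after adjustment, where 18.5% of all genes were. Most wild-type arrays were rich in hepatocyte transcripts, and the fatty acid list's mean was 10.50, 10.53, 10.54 and 10.58 on the 4 wild-type arrays, the last being the array at 5.69 in hepatocyte level. The ketone list's mean was 9.83, 9.88, 9.82 and 9.93 on the same arrays. Only 1 wild-type array was low in hepatocyte transcripts, and their part in the difference from wild type was not tested. The comparison with wild type shares the sedentary PBS arrays with the running contrast under PBS.

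The respiratory chain lists had smaller medians, and the difference from the lists above was not tested. Some of their genes sat near the top of the scale, such as Atp5b and Cox5b, with medians of 14.82 and 14.67 on running arrays. Small differences of such genes do not show that they did not change. Complex I had 31 of 33 members positive and 5 higher, with a median of 0.11, led by Ndufa9 (0.17 ± 0.06) and Ndufv2 (0.16 ± 0.05). Complexes III to V had 29 of 35 positive and 5 higher, with a median of 0.09. The heart and muscle form of a cytochrome oxidase subunit, Cox7a1, measured 14.52, 14.34, 14.10, 14.31 and 14.19 on running PBS arrays, against 13.99, 14.01, 13.95, 13.94 and 13.92 on sedentary PBS arrays. On running sActRIIB-Fc arrays it measured 14.72, 14.56, 14.08, 14.02 and 13.93, against 13.89, 13.90, 14.13, 13.75 and 14.02 on sedentary sActRIIB-Fc arrays. Its 4 highest running values were those of the hepatocyte-rich arrays, and its difference of 0.33 ± 0.09 was 0.15 without them. Uqcrc2, a core subunit of complex III, stood at 0.21 ± 0.07. Without the 4 arrays Ndufa9, Ndufv2 and Uqcrc2 stood at 0.11, 0.09 and 0.11, and the medians of complex I and of complexes III to V were 0.05 and 0.02. The TCA cycle list had 17 of 19 positive with a median of 0.05, at 0.13 under PBS and 0.00 under sActRIIB-Fc, and its leading members were Sdhb (0.35 ± 0.15) and Fh1 (0.20 ± 0.09), enzymes of the succinate and fumarate steps. Without the 4 arrays Sdhb and Fh1 stood at 0.16 and 0.11.

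Of 16 tested regulators of mitochondrial number 8 were positive, with a median of 0.00, or 0.01 without the 4 hepatocyte-rich arrays. The difference between this list and those of the enzymes was not tested. Ppargc1a, the coactivator itself, was at -0.06 (95% interval -0.27 to 0.15), or -0.15 without those arrays, and Esrrb, an ERR family receptor gene, at 0.29 ± 0.10. Other genes known to answer to exercise also failed the test: Pdk4, which spares glucose by braking pyruvate dehydrogenase, was at -0.02 (-0.65 to 0.60), Cs, the citrate synthase often assayed as a mitochondrial marker, at 0.02 (-0.17 to 0.22), Ucp3 at -0.03 (-0.48 to 0.43; 0.10 without those arrays) and Lpl, the lipase that frees fatty acids at the capillary wall, at 0.14 (-0.03 to 0.30). Pdk4 ranged widely, from 8.82 to 11.53 on running arrays and from 8.89 to 11.88 on sedentary arrays. Vegfa, the capillary growth factor, was at -0.19 (-0.38 to -0.01, adjusted p = 0.73 by limma).

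Genes of glucose use lay on the lower side over both injections, more so under sActRIIB-Fc than under PBS. Of 21 genes of glycolysis, glycogen and glucose transport 20 were negative, with a median of -0.14, but 1 was lower and 0 higher at an unadjusted p under 0.05. That 1 gene was Fbp2, the muscle fructose bisphosphatase, at -0.28 ± 0.09. Phka1, a subunit of phosphorylase kinase, stood at -0.25 ± 0.12, the insulin-responsive glucose transporter gene Slc2a4 at -0.21 and the hexokinase gene Hk2 at -0.14, the last 2 at -0.10 and -0.04 without the 4 hepatocyte-rich arrays. The shift was uneven over arrays. The list's mean was 11.59, 11.77, 11.56, 12.09 and 12.04 on running sActRIIB-Fc arrays, against 12.03, 11.99, 11.94, 12.05 and 12.12 on sedentary sActRIIB-Fc arrays, so 3 running arrays lay low and the other 2 within the sedentary range. Under PBS the means of running arrays, 11.89 to 12.06, overlapped those of sedentary arrays, 11.89 to 12.10. The median was -0.21 under sActRIIB-Fc and -0.05 under PBS, and -0.05 over both injections without the 4 hepatocyte-rich arrays. Without those arrays it was 0.01 under PBS, with 11 of 21 genes positive, and -0.10 under sActRIIB-Fc, with 1 positive. Some members sat near the top of the scale, such as Gapdh and Eno3, with medians of 14.68 and 14.73 on running arrays. Small differences of such genes do not show that they did not change.

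**Figure D2:**
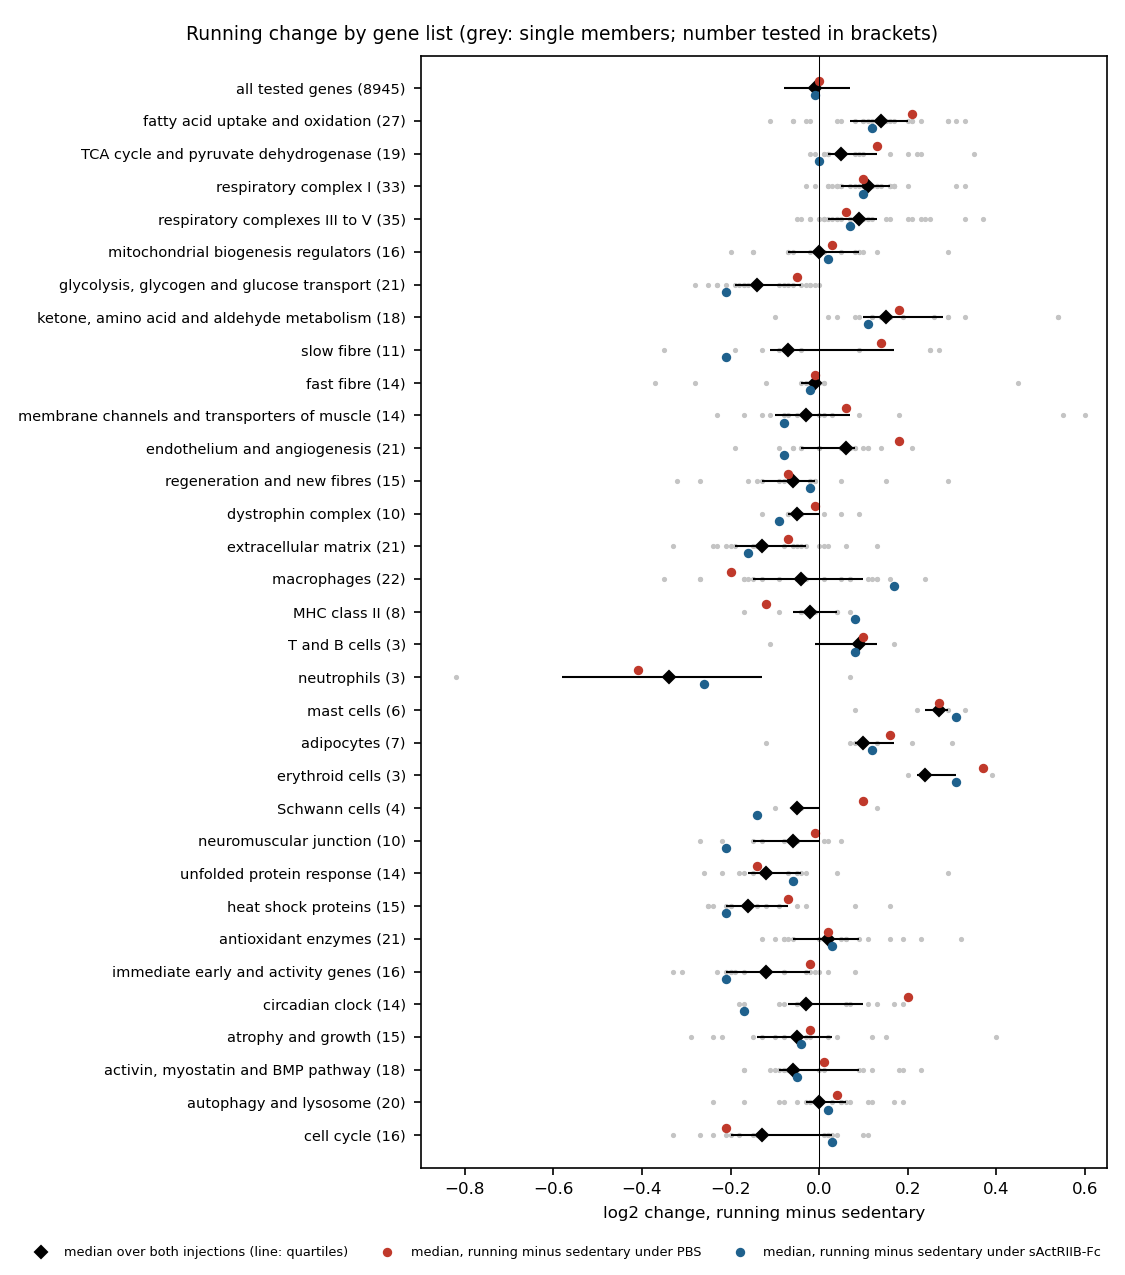
Running minus sedentary log2 differences by gene list, with grey dots for single members, diamonds and lines for the median and quartiles over both injections, red for the median under PBS and blue for that under sActRIIB-Fc. Hepatocyte transcripts, median 1.30, are left out of the axis. Fatty acid, ketone and mast cell lists lie to the right under both injections, while macrophages, the circadian clock, slow fibre and endothelium have medians of opposite sign under the 2 injections.

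The 14 fast fibre genes had a median of -0.01, but 9 of them, Actn3 among them, sat near the top of the scale, at 14.38 or above on every running and every sedentary mdx array. Their small differences, -0.04 to 0.01, therefore do not show that they did not change. Other probes of these genes gave -0.15 ± 0.07 and -0.28 ± 0.22 for Actn3 and -0.13 ± 0.09 for Myl1, a fast myosin light chain. Among the other 5 were Myh1 at 0.45 and Myh4, the IIb myosin, at -0.28 (95% interval -0.53 to -0.04, adjusted p = 0.72 by limma). Myh4 was lowest on 2 running sActRIIB-Fc arrays, at 13.40 and 13.18, against 13.99 to 14.42 on all sedentary arrays. The 11 slow fibre genes had a median of -0.07, with 3 higher at an unadjusted p under 0.05, among them Ckmt2 and the oxygen store myoglobin, Mb (0.25 ± 0.07, adjusted p = 0.34 by limma). Myh7, the slow myosin, was at -0.35 (95% interval -0.97 to 0.28), but at 0.04 without the 4 hepatocyte-rich arrays and at -0.06 with the hepatocyte level as a covariate. Mb ran from 14.32 to 14.65 on running arrays and from 13.99 to 14.55 on sedentary arrays, and its second probe gave 0.43 ± 0.09. Of the membrane channel list, which holds Aqp4 and Kcng4, 7 of 14 genes were positive and the median was -0.03, or 0.06 without the 4 hepatocyte-rich arrays.

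Lists of damage and repair leaned slightly to the lower side, and 0 of their members passed after adjustment. Regeneration and new fibre genes were negative in 12 of 15 members with a median of -0.06, or -0.19 without the 4 hepatocyte-rich arrays. Their leading members were Actc1 (-0.27 ± 0.11), the fetal and heart actin, and Igf2 (-0.32 ± 0.14), a growth factor, both far higher in sedentary PBS mdx than in wild type (3.94 and 3.57). Myh8, the perinatal myosin, was at -0.16 (95% interval -0.60 to 0.29), or -0.35 without those arrays. Of 21 extracellular matrix genes 16 were negative and 2 lower, with a median of -0.13. The 2 were the growth factor-induced matrix gene Ccn2 (-0.33 ± 0.14) and the fibril collagen gene Col5a1 (-0.20 ± 0.10). The matrix median was -0.07 under PBS and -0.16 under sActRIIB-Fc. Without the 4 hepatocyte-rich arrays it was -0.10 over both, -0.01 under PBS with 10 of 21 positive, and -0.19 under sActRIIB-Fc with 2 positive. Utrn, the dystrophin relative and close to the detection limit here, was at 0.05 (-0.18 to 0.28), and 7 of the 10 dystrophin complex genes were negative, with a median of -0.05. Chrnb1, an acetylcholine receptor subunit, was at -0.15, and Etv5, a transcription factor of the neuromuscular junction, at -0.27 ± 0.10, or -0.13 without the 4 hepatocyte-rich arrays.

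Inflammatory cell genes split by cell type and by injection. The 22 macrophage genes had a median of -0.04. Under PBS 1 of the 22 was positive (median -0.20) and under sActRIIB-Fc 16 were (median 0.17), and 0 genes passed the test of that difference. Without the 4 hepatocyte-rich arrays the median was -0.27 under PBS, 0.03 under sActRIIB-Fc with 12 of the 22 positive, and -0.15 over both injections. The list's mean was 9.14, 9.30, 9.41, 9.01 and 8.61 log2 units on running PBS arrays, against 9.44, 9.29, 9.38, 9.56 and 8.92 on sedentary PBS arrays. On running sActRIIB-Fc arrays it was 9.83, 9.48, 10.43, 8.18 and 9.30, against 9.35, 9.47, 9.30, 9.41 and 8.93 on sedentary sActRIIB-Fc arrays. Running replicates 3 and 4 under sActRIIB-Fc thus marked the highest and lowest of all 20 mdx arrays, and the median over both injections turned to 0.16 without replicate 4 and to 0.01 with arrays scaled to equal medians. Replicate 3 was also highest in cell cycle genes, at 7.90 against 6.10 to 6.52 on the other 4 arrays of its group, with Ccnd1, the G1 cyclin, at 10.32 there. All 6 mast cell genes were positive and 4 were higher at an unadjusted p under 0.05 (median 0.27), with the protease genes Mcpt4 and Cpa3 at 0.33 ± 0.12 and 0.27 ± 0.09. Other probes of Cpa3 gave 0.07 ± 0.10 and 0.23 ± 0.13. The mast cell mean ran from 6.74 to 7.22 on running arrays and from 6.45 to 7.11 on sedentary arrays, so the groups overlapped, and without the 4 hepatocyte-rich arrays the median was 0.15, with Mcpt4 at 0.22 and Cpa3 at 0.15. All 3 erythroid genes were positive, led by Alas2, the haem synthesis enzyme of red cell precursors (0.39 ± 0.12), and Hba-a1, a haemoglobin gene with a near-identical copy, stood at 0.20 ± 0.10, or 0.32 without those arrays.

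**Figure D3:**
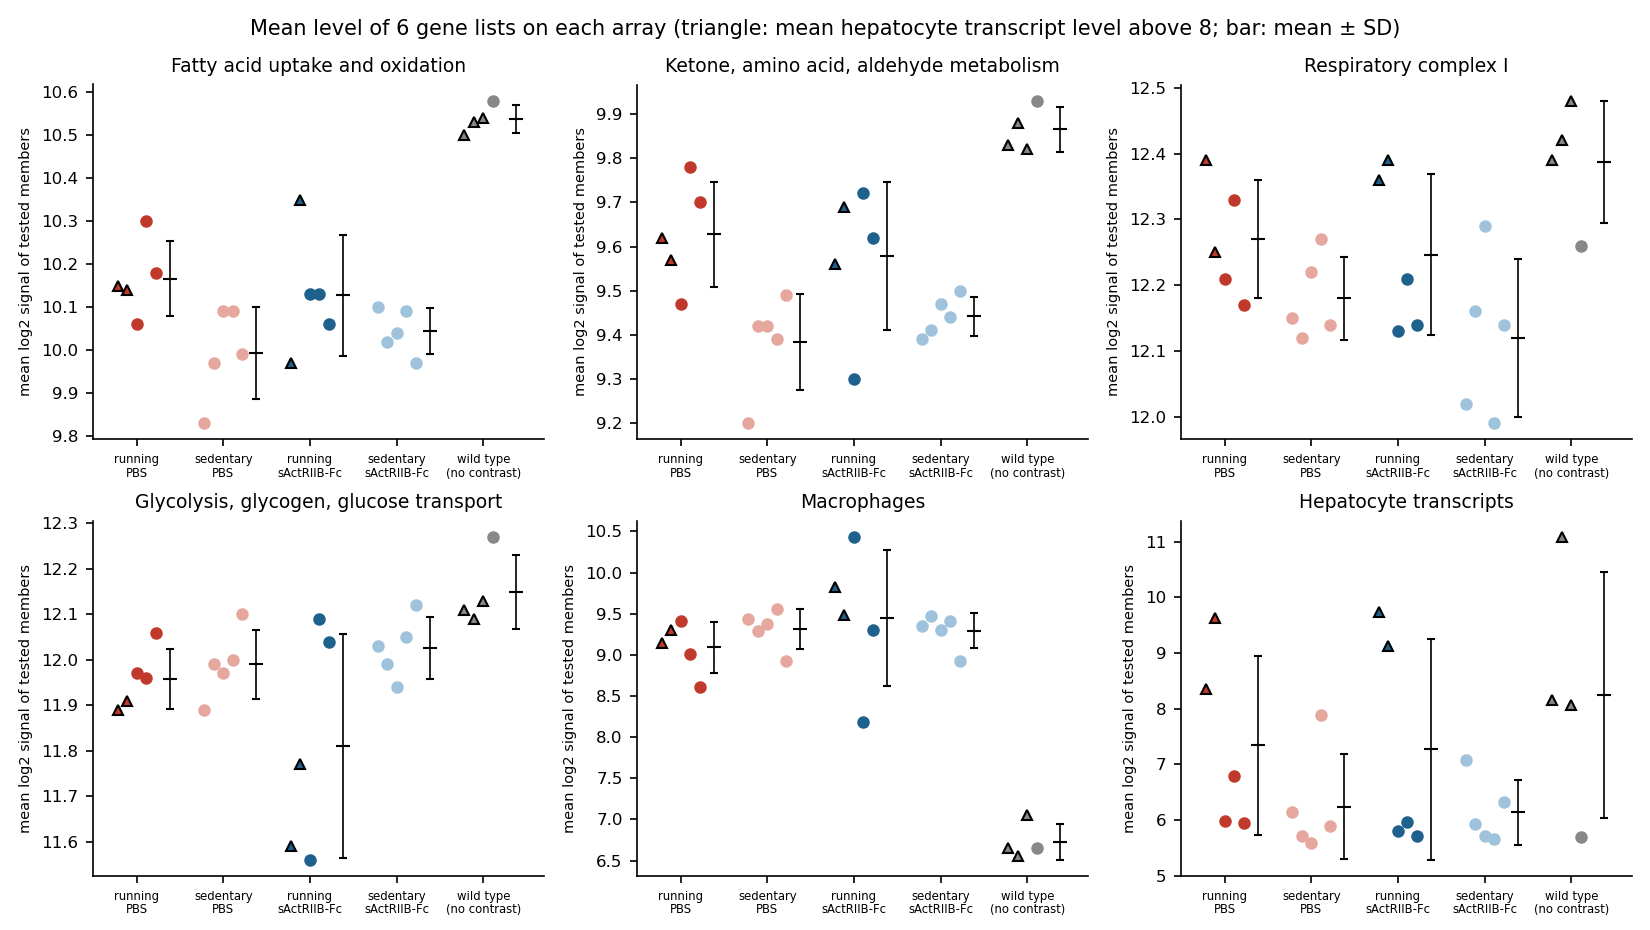
Mean log2 level of the tested members of 6 gene lists on each array, by group, with mean ± SD beside the points and triangles for arrays whose hepatocyte mean exceeded 8. Ketone and fatty acid lists lie higher on most running arrays, glycolysis is low on 3 running sActRIIB-Fc arrays, the macrophage mean spreads from 8.18 to 10.43 among running sActRIIB-Fc arrays, and the hepatocyte mean exceeds 8 on 4 running arrays.

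Stress response lists lay slightly lower. Of 15 heat shock genes 13 were negative and 5 lower at an unadjusted p under 0.05, with a median of -0.16. Hspa8, the constitutive chaperone, measured 13.88, 14.05, 14.17, 13.86 and 14.17 log2 units on running PBS arrays, against 14.22, 14.20, 14.32, 14.23 and 14.17 on sedentary PBS arrays. On running sActRIIB-Fc arrays it measured 13.97, 13.88, 14.24, 14.07 and 13.94, against 14.10, 14.22, 14.19, 14.30 and 14.29 on sedentary sActRIIB-Fc arrays. Hence 7 of 10 running arrays lay below every sedentary one, for a difference of -0.20 ± 0.06 (adjusted p = 0.48 by limma), with a second probe at -0.41 ± 0.15. The co-chaperone Hsph1 stood at -0.20 ± 0.08. The heat shock median was -0.07 under PBS, with 5 of 15 positive, and -0.21 under sActRIIB-Fc, with 2 positive. Without the 4 hepatocyte-rich arrays it was -0.07 over both injections, 0.01 under PBS with 8 of 15 positive, and -0.15 under sActRIIB-Fc. In the unfolded protein response 12 of 14 genes were negative (median -0.12), with Xbp1 at -0.17 ± 0.06 and the stress factor Ddit3 the other way at 0.29 ± 0.10, or 0.17 without those arrays. Ddit4, an inhibitor of mTORC1 signalling, was at 0.40 ± 0.14 (adjusted p = 0.55 by limma). Antioxidant enzymes had 15 of 21 positive and a median of 0.02, with Selenbp1 and Prdx2 (0.19 ± 0.07) at their head; Prdx2 was at 0.12 without those arrays, and 1 of its other probes gave -0.03. The activin, myostatin and BMP list, whose ligands sActRIIB-Fc captures, had 8 of 18 genes positive and a median of -0.06. The median was 0.01 under PBS, -0.05 under sActRIIB-Fc and -0.03 over both without the 4 hepatocyte-rich arrays. Its members of lowest p were the BMP type I receptor gene Acvr1 (-0.17 ± 0.06) and Smad1, the other way at 0.18.

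Both injections can be set side by side, because the running difference under PBS and that under sActRIIB-Fc share no array. They are not unlinked, since running arrays of the same replicate number deviated together (correlations of 0.34 to 0.46 in the 5 pairs) and replicates 1 and 2 were hepatocyte-rich under both injections. Under PBS 1 gene passed (0.0112%, Aqp4) and 297 had an unadjusted p under 0.05 (3.32%). Under sActRIIB-Fc 0 genes passed by limma and 741 had an unadjusted p under 0.05 (8.28%). All 5 running arrays lay above all 5 sedentary arrays for 44 genes under PBS (0.492%) and 41 under sActRIIB-Fc (0.458%), and below for 35 (0.391%) and 32 (0.358%). Across the 8945 genes the 2 differences correlated with r = 0.25 and rho = 0.06, a description over genes that share arrays and are not independent. The value was 0.18 without the hepatocyte list and -0.16 without that list and the 4 hepatocyte-rich arrays. Leading genes under sActRIIB-Fc were Nudt8, a nudix hydrolase gene (0.49 under sActRIIB-Fc, 0.15 under PBS), and the aminoacylase gene Acy1 (0.33 and 0.13), both higher, and Drc3, a gene of motile cilia (-0.43 and 0.10), lower. None of them passed.

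**Figure D4:**
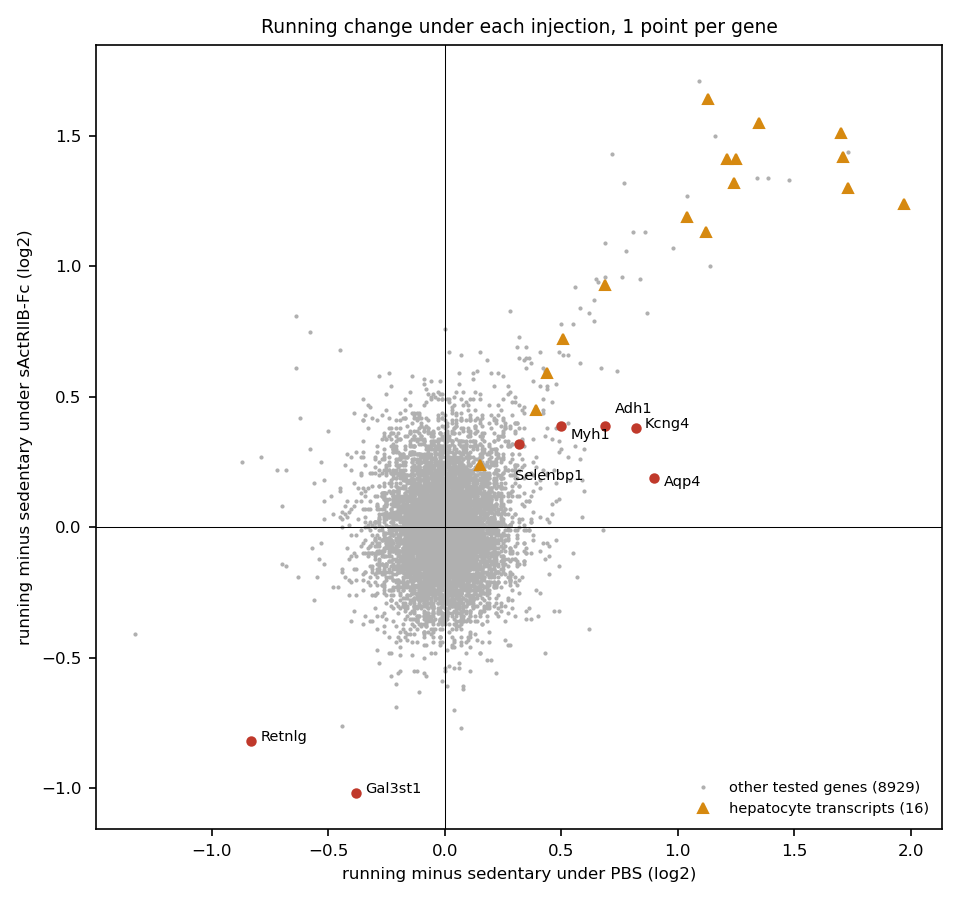
Running minus sedentary log2 difference of each tested gene under PBS (x axis) and under sActRIIB-Fc (y axis). The 16 hepatocyte transcripts stretch up the diagonal, the other 8929 genes form a cloud with a weak trend (r = 0.18), and the labelled genes are among those of lowest p for running over both injections.

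The running by injection interaction passed at 0 of 8945 genes by limma, with 356 at an unadjusted p under 0.05 (3.98%). Besides Aqp4, the lowest p belonged to Drc3 (-0.53 ± 0.13) and Reln, which encodes the secreted protein reelin (-0.69 ± 0.18), both with an adjusted p of 0.93. Zcchc3, an RNA-binding zinc finger gene, stood between them in p but was detected on 2 of 5 running sActRIIB-Fc and 2 of 5 sedentary PBS arrays, so no size is given for it. Several lists had medians of opposite sign over all arrays: endothelium and angiogenesis (0.18 under PBS, -0.08 under sActRIIB-Fc), slow fibre (0.14 and -0.21), circadian clock (0.20 and -0.17) and cell cycle (-0.21 and 0.03). Without the 4 hepatocyte-rich arrays the endothelial medians were 0.29 and 0.01, so the opposite sign was lost there. The slow fibre (0.20 and -0.32), clock (0.23 and -0.07) and cell cycle (-0.16 and 0.23) medians remained opposite. Only replicates 3, 4 and 5 of running sActRIIB-Fc then remained, with cell cycle means of 7.90, 6.10 and 6.52. Sedentary sActRIIB-Fc arrays ran from 6.31 to 6.75, so replicate 3 alone lay above them. Arntl, the activator of the clock, ran from 6.13 to 7.85 on running arrays and from 6.06 to 8.21 on sedentary arrays. That spread was far wider than its difference of -0.18 (-0.02 without the 4 hepatocyte-rich arrays), and the time of day of sampling was not analysed here. Of the 8945 genes 1725 were higher (19.3%) and 1651 lower (18.5%) in sedentary PBS mdx than in wild type. The running difference under sActRIIB-Fc, which shares no array with that comparison, had a median of 0.00 among the first and -0.01 among the second, against -0.01 over all genes.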

How the data were processed

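Illumina BeadChip arrays measured total RNA of mouse gastrocnemius, extracted with Trizol and labelled with biotin per the labels. The deposited table gave, for 25697 probes, the bead signal intensity of each of the 24 arrays, neither background-subtracted nor normalized. Per the file headers a detection p-value stood beside each signal. A second deposited table held the authors' log2 values. The software behind both tables is not given in the sources used here. All columns were matched to samples and used.

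Intensities were corrected with normexp from the detection p-values (offset 16), quantile normalized and put on the log2 scale with limma 3.58.1 in R 4.3.3. Probes with detection p under 0.05 on at least 4 arrays were kept (12623, of which 11919 had a gene symbol in the platform annotation), and the probe of highest mean stood for its gene, giving 8945 genes. Genes were fitted by 1 linear model with a mean for each of the 5 groups over 24 arrays, with 19 residual degrees of freedom and empirical Bayes moderation. The running contrast was the mean of both running groups minus the mean of both sedentary mdx groups. Tests were two-sided, with Benjamini-Hochberg adjustment over 8945 genes, and passed under 0.05. The script was tested on simulated data. Replicates are separate mice per the series' design text, and the number of arrays limits the precision (median SE 0.09 log2 units).

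Named genes were those passing, those of lowest p up to 10 in each direction, the passing members or the 2 members of lowest p of each list, a set of exercise and mdx genes, the 5 of lowest interaction p, and the 3 of lowest p in each direction within each injection; not every such gene is printed. The 33 lists hold 676 genes, 506 of them tested. The contrast, the named genes' rule and the lists were chosen with earlier results of these data known. No sequence is printed.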

Additional observations from a re-analysis of the deposited data

Results flagged for a closer look

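Within groups of 5 arrays, the highest or lowest array was set against the others for 74 genes, 33 gene lists and the raw median signal, and 28 of 432 such groups had 1 array far from the rest. Chance flags about 1 in 20 groups. Values are log2 units, and no cause was tested.

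Among running sActRIIB-Fc arrays, replicate 3 stood highest in Ccl2 (7.00, others 4.64 to 5.32), Ccnd1 (10.32, others 8.89 to 9.25), Hsph1 (10.00, others 9.52 to 9.65) and the cell cycle list (7.90, others 6.10 to 6.52). Ccl2, a chemokine that draws monocytes, was detected on 1 of 5 running sActRIIB-Fc and 3 of 5 running PBS arrays, against 3 of 5 sedentary sActRIIB-Fc and 5 of 5 sedentary PBS arrays, so it lay close to background. Replicate 1 stood lowest in Kcng4 (6.43, others 7.26 to 7.47) and replicate 4 highest in Acy1 (7.71, others 7.48 to 7.54).

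Among running PBS arrays, replicate 5 stood lowest in Mb (14.32) and highest in the neuromuscular junction list (8.46, others 8.15 to 8.24). Replicate 3 stood lowest in Ndufa9 (13.05) and highest in the cell cycle list (6.84, others 6.21 to 6.35). Replicate 1 stood lowest in the extracellular matrix list (9.95, others 10.23 to 10.28).

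Among sedentary sActRIIB-Fc arrays, replicate 4 stood lowest in Aqp4 (6.45, others 6.76 to 6.83) and Nrn1 (5.90), and highest in Col5a1 (10.58) and the extracellular matrix list (10.62, others 10.27 to 10.33). Replicate 2 stood highest in Uqcrc2 (13.72), replicate 5 in Hba-a1 (13.48) and replicate 1 in Gnmt, a methyltransferase of liver (6.52).

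Among sedentary PBS arrays, replicate 1 stood highest in Col5a1 (10.73), Ccl2 (6.21) and Cpa3 (7.41) and lowest in Fbp2 (9.86). Replicate 4 stood highest in the hepatocyte list (7.88, others 5.59 to 6.14), Gnmt (7.12) and Hba-a1 (13.35). Replicate 3 stood highest in Oxct1 (11.97, others 11.64 to 11.70) and the T and B cell list (5.69), and replicate 5 lowest in Nrn1 (5.49).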

How the results depend on the processing

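The count of genes passing for running was 1 with all arrays. It was 2 without background correction, with a normexp offset of 50, without the detection filter, with array weights and in the authors' deposited log2 table, Selenbp1 joining Aqp4 each time, and 3 with each array's raw median signal in the model, Myh1 being the third. It was 0 with arrays scaled to equal medians (Aqp4 adjusted p = 0.16), with additive factors over the mdx arrays (0.24), with the hepatocyte level as a covariate (0.055) and without the 4 running arrays above 8 (0.23). It was 0 as well without those 4 and the 3 wild-type arrays above 8 (0.44), a run added after seeing the data in which the count under PBS was 0 too. Over all alternatives the Aqp4 difference ran from 0.38 to 0.59. Leaving out 1 of the 20 mdx arrays in turn gave 1 to 2 genes, the second being Kcng4 without running sActRIIB-Fc replicate 1 and Selenbp1 without replicate 3 of that group. The replicate block gave 0 genes (Aqp4 0.55, adjusted p = 0.15). Replicate numbers followed raw median signal, which was highest on replicate 1 of each of the 5 groups. From replicate 1 to replicate 5 it went from 95.9 to 81.3 in running PBS and from 99 to 79.1 in sedentary PBS. The source of this shared order was not tested. After normalization, same-number deviations correlated at -0.23 to 0.18 between running and sedentary PBS arrays and at -0.09 to 0.19 under sActRIIB-Fc. Between both running groups they correlated at 0.34 to 0.46, with 3 of 5 running PBS arrays closest to their own number, which is a hint from the data and not from the design. The counts for running under sActRIIB-Fc and for the interaction were 0 in every alternative run. No called gene changed sign. Over both injections, the medians of the fatty acid, ketone, glycolysis, mast cell and heat shock lists kept their sign in each of 37 alternatives. Those of macrophages, MHC class II, the circadian clock, slow fibre, regeneration and membrane channels did not. Under PBS alone and without the 4 running arrays above 8, the glycolysis and heat shock medians were both 0.01. Differences of dim genes are not resolved, and Asap2, Zcchc3 and Ccl2 are given none. Sizes printed for other genes of low signal depended on background correction. Without it Hcfc1r1, H2bc6, Ret and Esrrb stood at -0.14, -0.18, -0.20 and 0.15, against -0.28, -0.35, -0.35 and 0.29 with it. Leading genes moved too: Aqp4, Kcng4 and Nrn1 stood at 0.38, 0.44 and 0.29 without it, against 0.55, 0.60 and 0.49. Retnlg and Gal3st1 stood at -0.57 and -0.44, against -0.82 and -0.70. Selenbp1 moved less, from 0.32 to 0.28, and Myh1 and Ckmt2 stayed at 0.45 and 0.25.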
